A study of Mus musculus with 5 samples.

Results

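The transcripts described here are those of 10 mouse genes of the major histocompatibility complex (MHC) class II pathway, taken by gene name from the 27179 genes of a table of counts. They are the invariant chain Cd74, the classical chains H2-Aa, H2-Ab1 and H2-Eb1, the peptide-loading chains H2-DMa, H2-DMb1 and H2-DMb2, the loading inhibitors H2-Oa and H2-Ob, and the transactivator Ciita. All 10 were found, and all 10 passed the filter on low counts. RNA was sequenced from lymphocytes sorted from wild type C57BL/6 mice, in 3 libraries of ILC3 and 2 libraries labelled CD4 T. ILC3, the group 3 innate lymphoid cells, were gated as CD45+, CD3-, CD127+ cells positive for a fluorescent lineage reporter. CD4 T cells were gated as CD45+CD3+CD4+. The cells came from 3 mice, no treatment is labelled in either group, and the sources used here do not give the age of the mice, the reporter allele or the tissue of each library, though the series title names the intestine. Libraries are not tied to animals by their labels, so a p-value reflects how far these libraries spread, part of which may be technical. The kit used amplifies cDNA from small numbers of cells.

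MHC class II molecules hold an alpha and a beta chain and present peptides from endosomes to CD4 T cells. The invariant chain fills their groove during assembly, H2-DM exchanges the last invariant chain fragment (CLIP) for peptides, and H2-O restrains H2-DM. Ciita switches these genes on together with the RFX and NF-Y factors bound at their promoters. Dendritic cells, B cells and macrophages are known for high class II levels, ILC3 of mice are known to carry class II as well, and mouse T cells are not known for transcribing it.

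Library depth was 20905412 to 25956023 counts in ILC3 and 15123715 to 20165672 counts in CD4 T. Levels are given as CPM, counts per 1000000 counts after TMM scaling. All 10 markers of an ILC3 list were called higher in ILC3, as were 6.46% of all tested genes. The calls of Il23r and Ccr6 did not hold in every fit with 1 library left out. Il22 led that list in ILC3 (19468 to 21493 CPM, against 13.3 and 141 CPM in CD4 T) and Id2 in CD4 T (3673 to 4233 CPM in ILC3, against 630 and 1239 CPM in CD4 T, not called without any 1 ILC3 library, with edgeR adjusted p up to 0.0819). Il7r, which encodes CD127, was 1027 to 1489 CPM in ILC3 against 212 and 227 CPM in CD4 T, and Ptprc, which encodes CD45, 172 to 213 CPM in ILC3 against 1169 and 959 CPM in CD4 T. Cd4 was 2.82 to 6.28 CPM in ILC3 against 142 and 90.1 CPM in CD4 T, while Cd3e overlapped between the groups (20.6 to 69.9 CPM against 54.9 and 201 CPM). The libraries labelled CD4 T also held transcripts known from macrophages and plasmacytoid dendritic cells, at higher summed levels than the ILC3 libraries. Summed over 12 macrophage and monocyte markers, the level was 177 to 225 CPM in ILC3 against 2415 and 3181 CPM in CD4 T. Over 11 plasmacytoid dendritic cell markers it was 271 to 683 CPM in ILC3 against 5272 and 4336 CPM in CD4 T. Every difference below is therefore against libraries that hold such transcripts, and the part of these cells in the differences was not tested.

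Cd74 and the classical chains were the most abundant of the class II transcripts in both groups, and 5 of the 10 genes were lower in ILC3. The 10 genes took 0.913%, 0.696% and 1.03% of all counts in ILC3 replicates 1 to 3, against 1.77% and 3.18% in CD4 T replicates 1 and 2. The 95% Wilson interval of the first of these shares was 0.909% to 0.916%, which covers counting error only. Besides the 5 lower genes, 0 were higher in ILC3 and 5 were not called (edgeR quasi-likelihood test, called at a Benjamini-Hochberg adjusted p under 0.05 over 12747 genes). Of all tested genes, 13.7% were called, 7.21% lower and 6.46% higher. No member was higher at an unadjusted p under 0.05 either, nor by DESeq2 or limma-voom. The median log2 fold change of the members, ILC3 over CD4 T, was -2.02, and that of all tested genes was -0.10. For 7 members every ILC3 library lay below both CD4 T libraries, a pattern seen in 29.6% of tested genes, and for 0 members every ILC3 library lay above, a pattern seen in 25.5%. In bulk RNA, fewer cells of a type and less RNA per cell cannot be told apart. The count of 5 fell to 1 without ILC3 replicate 1 or 2, to 2 without ILC3 replicate 3 and to 3 without CD4 T replicate 2.

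**Figure D1:**
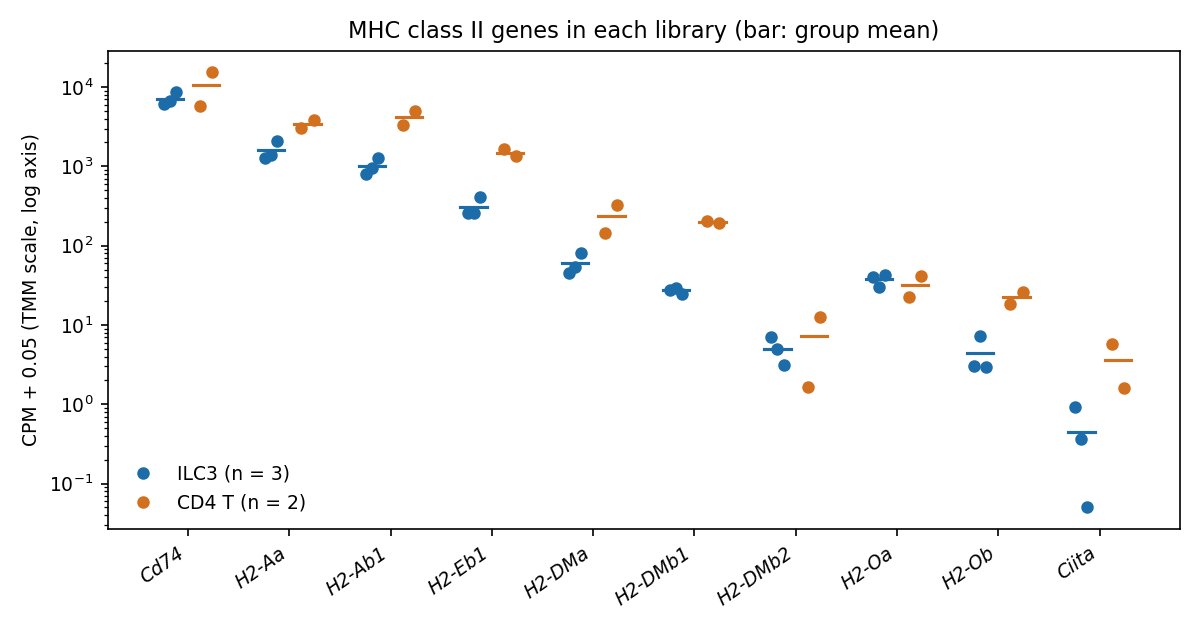
Level of each MHC class II gene in each library, as CPM plus 0.05 on a log axis, with points for the 3 ILC3 libraries (left of each pair) and the 2 CD4 T libraries (right) and a bar for the group mean. Levels run from Cd74, at 6082 to 8662 CPM in ILC3, down to Ciita, at 0 to 0.866 CPM in ILC3, and H2-DMb1 separates the groups with the least spread.

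Cd74, the invariant chain that escorts new class II molecules to endosomes (NCBI gene 16149, chromosome 18, 60803849 to 60812652 in GRCm38), was the most abundant member in every library. It was 6082, 6628 and 8662 CPM in ILC3, against 5764 and 15253 CPM in CD4 T. The groups overlapped, since CD4 T replicate 1 lay below all ILC3 libraries and CD4 T replicate 2 above them. The log2 fold change of -0.56 (SE 0.462) was not called (adjusted p = 0.446 in edgeR), and it was 0.32 without CD4 T replicate 2.

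The classical chains form the peptide-binding molecule at the cell surface. H2-Ab1, the I-A beta chain, had a mean of 1004 ± 235 CPM over the 3 ILC3 libraries and of 4163 ± 1228 CPM over the 2 CD4 T libraries (± SD). The single values were 799, 954 and 1260 CPM in ILC3, against 3294 and 5031 CPM in CD4 T, with no overlap. This was 4.14-fold lower in ILC3 (log2 -2.05 with SE 0.352, adjusted p = 0.0162 in edgeR). H2-Aa, the I-A alpha chain that pairs with it, was 1282, 1402 and 2073 CPM in ILC3, against 3029 and 3787 CPM in CD4 T. Its groups did not overlap either, but the log2 fold change of -1.10 (SE 0.337) missed the threshold (edgeR adjusted p = 0.0704). It passed with robust dispersion (edgeR adjusted p = 0.0452), with library size alone (0.0312), in limma-voom (0.0226) and in DESeq2 (0.00497). H2-Eb1, the I-E beta chain, was 261, 256 and 408 CPM in ILC3, against 1650 and 1333 CPM in CD4 T, which was 4.84-fold lower in ILC3 (log2 -2.27 with SE 0.337, adjusted p = 0.0112 in edgeR). Leaving out ILC3 replicate 1, 2 or 3 ended the call of H2-Ab1 (edgeR adjusted p = 0.068, 0.0845 and 0.0507), and leaving out ILC3 replicate 1 or 2 ended that of H2-Eb1 (0.0508 and 0.0585).

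C57BL/6 mice are known to lack a functional I-E alpha chain, and RefSeq lists its gene, H2-Ea, as a transcribed pseudogene. H2-Ea held 0, 9 and 4 counts in ILC3, against 1 and 58 counts in CD4 T, and was not tested. H2-Eb2, a second E beta gene beside H2-Eb1, was 0, 1.35 and 4.97 CPM in ILC3, against 10.7 and 5.79 CPM in CD4 T. All 3 ILC3 libraries lay below the CD4 T libraries for H2-Eb2, with a log2 fold change of -1.97 (SE 1.66) that did not pass (edgeR adjusted p = 0.457).

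The H2-DM chains catalyse peptide loading. H2-DMb1, a DM beta chain, was the member with the smallest p. It was 27.9, 29.3 and 24.5 CPM in ILC3, against 207 and 194 CPM in CD4 T, so each group was tight and the groups lay far apart. It was 7.34-fold lower in ILC3 (log2 -2.88 with SE 0.261, adjusted p = 0.00263 in edgeR) and the 1 member called in all 16 alternatives tried. H2-DMa, the DM alpha chain, was 45.2, 53.0 and 80.5 CPM in ILC3, against 146 and 325 CPM in CD4 T. Its log2 fold change of -1.98 (SE 0.432) passed (edgeR adjusted p = 0.0325) and was -1.28 without CD4 T replicate 2 (edgeR adjusted p = 0.0735). The H2-DMa call was also lost without ILC3 replicate 1 (0.0967), 2 (0.0999) or 3 (0.0564). RefSeq has gene models of H2-DMa and its neighbour Brd2 that overlap, and reads from the shared stretch cannot be told apart.

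H2-DMb2, a second DM beta gene next to H2-DMb1, was 6.93, 4.87 and 3.04 CPM in ILC3, against 1.59 and 12.7 CPM in CD4 T, where 1 library lay below and 1 above all ILC3 libraries. No difference was called (log2 -0.52 with SE 0.971, adjusted p = 0.757 in edgeR), and the log2 fold change was 1.65 without CD4 T replicate 2. The transcripts of H2-DMb1 and H2-DMb2 are 93.9% identical over 1255 aligned bases, with a longest identical run of 221 bases. Reads from such runs may be given to either gene or dropped, so the split between them is uncertain.

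H2-O binds H2-DM and inhibits it. H2-Oa, the alpha chain, was 40.4, 30.0 and 42.1 CPM in ILC3, against 22.3 and 41.7 CPM in CD4 T. These groups overlapped, and the log2 fold change of 0.23 (SE 0.383) was the 1 positive value among the members (edgeR adjusted p = 0.728). It was -0.15 without CD4 T replicate 1 and -0.25 with library size in place of TMM. H2-Ob, the beta chain, was 2.96, 7.24 and 2.92 CPM in ILC3, against 18.4 and 25.9 CPM in CD4 T, with no overlap. Its log2 fold change of -2.34 (SE 0.607) lay on the threshold (edgeR adjusted p = 0.04999). Leaving out any 1 of the 5 libraries ended that call, with adjusted p from 0.0605 to 0.129 in edgeR.

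Ciita, the master regulator that does not bind DNA itself, was at the edge of detection in ILC3. It held 24, 5 and 0 counts in ILC3 replicates 1 to 3, against 142 and 29 counts in CD4 T replicates 1 and 2. As levels these were 0.866, 0.320 and 0 CPM in ILC3, against 5.63 and 1.57 CPM in CD4 T. Every ILC3 library lay below both CD4 T libraries, but the log2 fold change of -3.15 (SE 1.70) did not pass (edgeR adjusted p = 0.247). The count of 0 in ILC3 replicate 3 allows up to 3 counts, or 0.144 counts per 1000000 counts of that library, so absence is not shown. In the same libraries the H2-Aa, H2-Ab1 and H2-Eb1 levels summed to 2341, 2612 and 3741 CPM in ILC3, against 7974 and 10152 CPM in CD4 T.

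**Figure D2:**
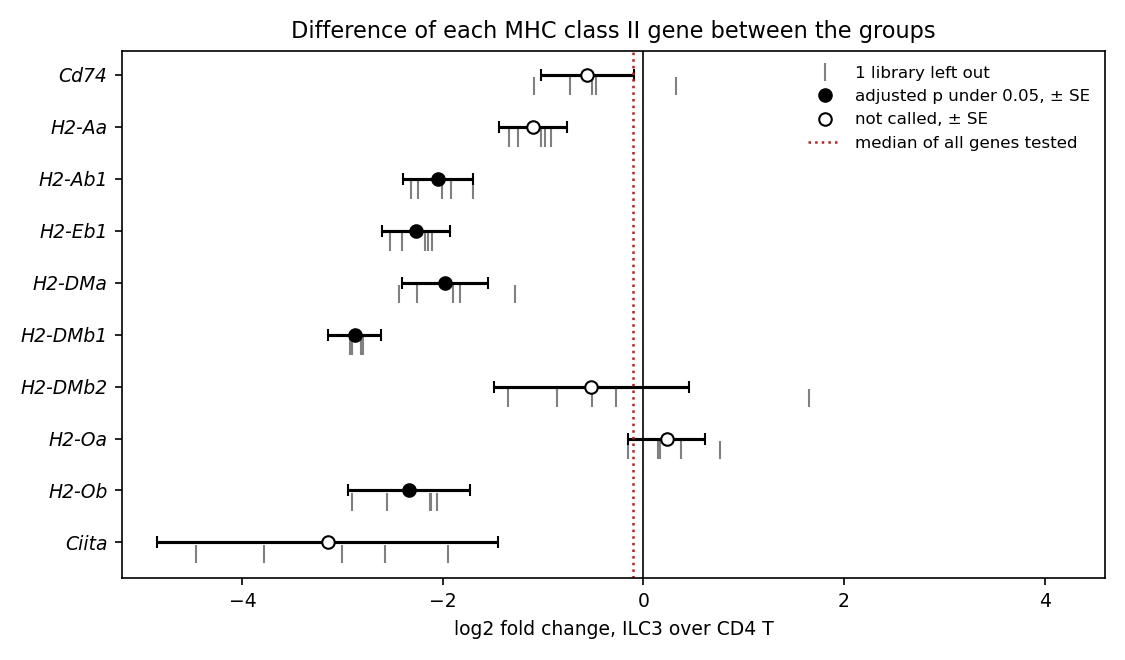
Log2 fold change of each MHC class II gene, ILC3 over CD4 T, with its SE, filled where the edgeR adjusted p was under 0.05, and grey ticks for the value with 1 library left out. The 5 called genes lie between -1.98 and -2.88, Cd74, H2-DMb2 and H2-Oa have ticks on both sides of 0, and the dotted line marks the median of all tested genes, -0.10.

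Promoters of 7 of the 10 members were searched, with gene starts from a RefSeq table (GRCm38.p6). Each ran from 250 bases before to 50 after a gene start, H2-DMa having more than 1 start. Promoters of Cd74, the most abundant member and not called, and of H2-Ab1 and Ciita were not searched. The counts of members below leave these genes out. Class II promoters are known for an X box, bound by RFX, and a Y box, an inverted CCAAT element bound by NF-Y. The letters TGATTGG, which contain that inverted element, were searched on both strands and occurred in promoters of 6 of the 7 members, H2-DMa being the other, and in 7.82% of all 32851 promoters. The letters GCAAC, part of many X boxes, occurred on either strand in promoters of 5 of the 7 members and in 35.2% of all promoters. They stood 28 to 31 bases before TGATTGG on the same strand in H2-Aa, H2-Eb1, H2-Oa and H2-Ob. Among all promoters, 15 (0.0457%) hold that pair at this spacing on either strand, these 4 included. The spacing was taken from the members, so this is a description. The 80 bases around the pair are shown because they let called and uncalled members be compared letter by letter. Capitals mark TGATTGG and, where it is present, GCAAC before it.
H2-Aa, chr17:34287854-34287933, minus strand: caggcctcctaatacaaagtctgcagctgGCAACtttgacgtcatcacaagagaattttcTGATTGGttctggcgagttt
H2-Eb1, chr17:34305746-34305825, plus strand: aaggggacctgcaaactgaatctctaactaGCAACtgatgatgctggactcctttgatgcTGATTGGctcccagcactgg
H2-Oa, chr17:34092274-34092353, plus strand: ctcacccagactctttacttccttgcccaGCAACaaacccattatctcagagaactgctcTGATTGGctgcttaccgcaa
H2-Ob, chr17:34238786-34238865, plus strand: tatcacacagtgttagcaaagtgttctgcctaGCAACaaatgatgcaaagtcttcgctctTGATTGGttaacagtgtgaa
H2-DMb1, chr17:34153068-34153147, plus strand: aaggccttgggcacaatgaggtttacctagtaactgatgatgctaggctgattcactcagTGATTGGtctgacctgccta
H2-DMb2, chr17:34145097-34145176, plus strand: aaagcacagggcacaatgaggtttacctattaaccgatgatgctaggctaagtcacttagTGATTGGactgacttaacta

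H2-Oa and H2-DMb2, which were not called, hold TGATTGG as do H2-Eb1, H2-Ob and H2-DMb1, which were lower in ILC3. The pair of H2-DM beta promoters has no GCAAC before TGATTGG in this window, and the read split between these genes is uncertain, as described above. Only promoters with TGATTGG are shown, so they cannot compare genes with and without it, and H2-DMa, which lacks it, was lower in ILC3. Among those shown, called and uncalled genes occurred both with GCAAC before TGATTGG and without, the latter being the H2-DM beta pair alone. An X box with other letters would be missed by this search, and a part of these letters in the differences was not tested.

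Ratios between members within a library do not depend on how libraries are scaled. The ratio of H2-DM counts (H2-DMa, H2-DMb1 and H2-DMb2) to H2-O counts (H2-Oa and H2-Ob) was 1.85, 2.34 and 2.40 in ILC3, against 8.71 and 7.85 in CD4 T. It was 3.79-fold lower in ILC3, with a two-sided exact permutation p = 0.2, the smallest that 3 against 2 libraries allow. Among the alpha chains, H2-DMa to H2-Oa was 1.12, 1.77 and 1.91 in ILC3, against 6.54 and 7.79 in CD4 T. Among the beta chains, the groups did not separate. H2-DMb1 and H2-DMb2 to H2-Ob was 11.8, 4.73 and 9.42 in ILC3, against 11.3 and 7.96 in CD4 T.

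Other ratios, chosen after their values were seen, are given with no test. Cd74 counts were 7.62, 6.94 and 6.87 times those of H2-Ab1 in ILC3, against 1.75 and 3.03 times in CD4 T. H2-Aa counts were 1.60, 1.47 and 1.65 times those of H2-Ab1 in ILC3, against 0.920 and 0.753 times in CD4 T. Both ratios were tight within ILC3 and did not overlap with CD4 T. H2-Oa to H2-Ob was 13.7, 4.15 and 14.4 in ILC3, against 1.22 and 1.61 in CD4 T, with no overlap. H2-DMb2 to H2-DMb1 was 0.248, 0.166 and 0.124 in ILC3, against 0.00768 and 0.0654 in CD4 T, within the limits of a read split between near-identical genes. H2-Eb1 to H2-Ab1 overlapped, at 0.327, 0.268 and 0.324 in ILC3, against 0.501 and 0.265 in CD4 T.

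**Figure D3:**
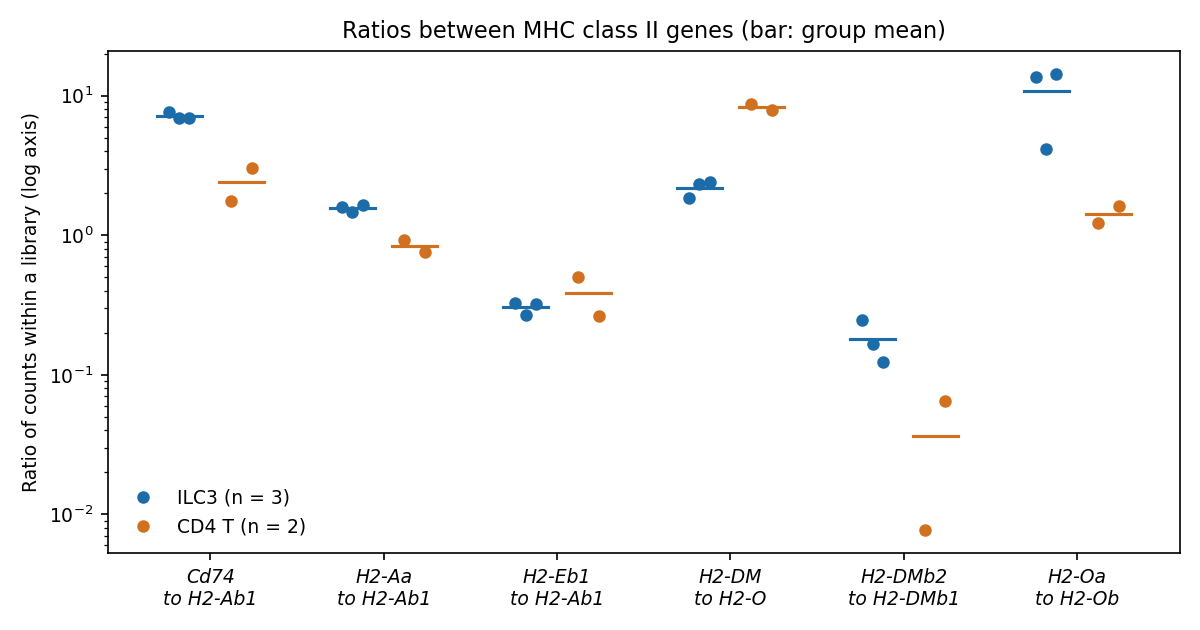
Ratio of the counts of class II genes within each library on a log axis, with points for the 3 ILC3 libraries (left) and the 2 CD4 T libraries (right) and a bar for the group mean. The H2-DM to H2-O ratio is 1.85 to 2.40 in ILC3 against 8.71 and 7.85 in CD4 T, while the H2-Eb1 to H2-Ab1 ratio overlaps.

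Per kilobase of transcript, the members kept 1 order in the ILC3 libraries apart from H2-DMa and H2-Oa. Cd74 came first with 4313, 4701 and 6143 CPM per kilobase, which was 67.9%, 67.4% and 65.5% of the summed level of the 10 genes. In CD4 T it was also first, with 4088 and 10818 CPM per kilobase, and its share was 38.0% and 55.4%. H2-Aa came next and H2-Ab1 after it in each ILC3 library, and they stood in the opposite order in each CD4 T library. H2-Aa was 1136 to 1838 CPM per kilobase in ILC3, against 2686 and 3357 in CD4 T. H2-Ab1 was 659 to 1040 CPM per kilobase in ILC3, against 2718 and 4151 in CD4 T. H2-Eb1 followed these in every library, and Ciita was last. H2-DMa and H2-Oa exchanged places among the ILC3 libraries, at 27.2 to 48.5 and 27.6 to 38.7 CPM per kilobase, so their order there is not beyond the spread. H2-Oa stood above H2-DMb1 in each ILC3 library (17.4 to 20.9 CPM per kilobase for H2-DMb1) and below it in each CD4 T library (20.5 and 38.3 for H2-Oa, 147 and 138 for H2-DMb1).

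Apart from Cd74 and Ciita, the members lie in 252 kilobases of chromosome 17, between the start of H2-Oa at 34092379 and the end of H2-Ea at 34344645. In GRCm38 the genes span 34092379 to 34095234 for H2-Oa, 34119693 to 34139101 for H2-DMa, 34143229 to 34151553 for H2-DMb2 and 34153191 to 34160229 for H2-DMb1. Further along lie H2-Ob at 34238905 to 34245908, H2-Ab1 at 34263227 to 34269418, H2-Aa at 34282744 to 34287823 and H2-Eb1 at 34305867 to 34316674. Ciita starts at 10480014 on chromosome 16. Of 15 genes of the table in this stretch of chromosome 17, 14 were tested, 8 of them members. Among the 6 others, 2 were lower in ILC3 and 4 were not called. Tap1 and Tap2, the peptide transporter of the class I pathway, were the lower ones, with log2 fold changes of -2.61 (SE 0.37, edgeR adjusted p = 0.0101) and -2.12 (SE 0.507, edgeR adjusted p = 0.0414). The Tap2 call was lost without any 1 of the 5 libraries (edgeR adjusted p from 0.0626 to 0.146). Psmb8, an immunoproteasome subunit gene between them, was 667, 791 and 654 CPM in ILC3, against 394 and 695 CPM in CD4 T, and was not called (edgeR adjusted p = 0.503). H2-DMb2 and H2-DMb1, whose log2 fold changes were -0.52 and -2.88, are direct neighbours. Of a list of 6 neighbours of the class II genes, class I pathway genes and Brd2, 3 were lower and 3 not called. Tapbp, also on that list, was lower in ILC3 (log2 -2.01, adjusted p = 0.0155 in edgeR, and 0.0514 to 0.0631 without 1 ILC3 library).

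**Figure D4:**
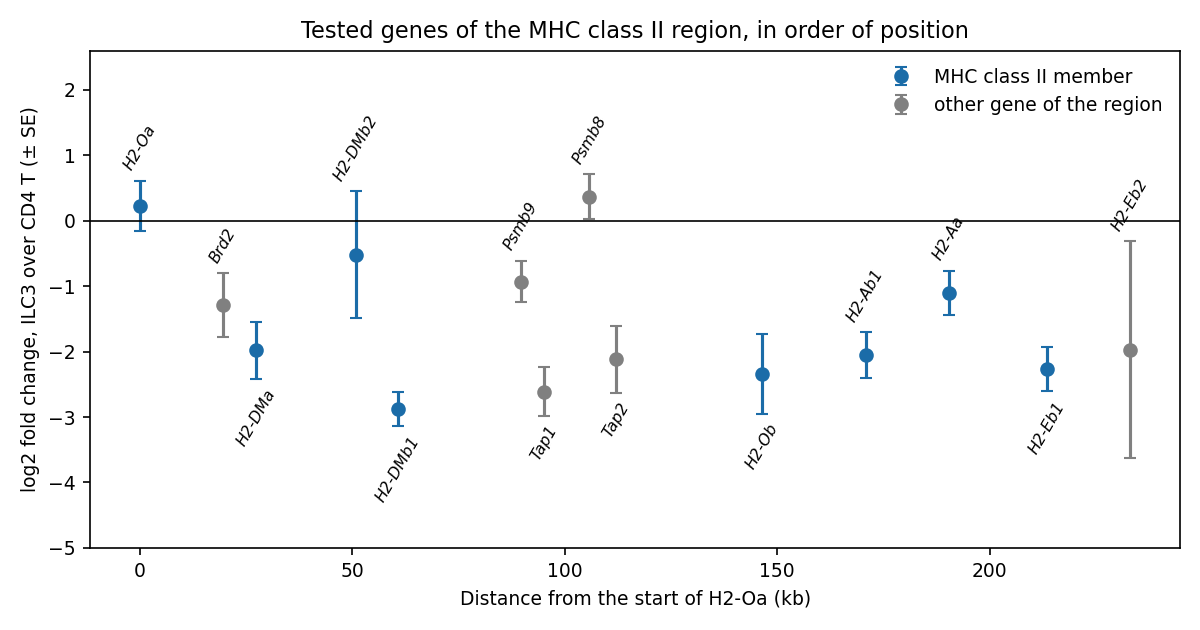
Log2 fold change, ILC3 over CD4 T, with its SE, of the 14 tested genes of the MHC class II region against the distance of each from the start of H2-Oa in kilobases, members in blue and other genes in grey. The value of H2-Oa is 0.23 and that of H2-Eb1, at the other end of the members, is -2.27, with values up and down between them.

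Of 16 regulators of class II transcription, 2 rose in ILC3, 5 fell and 9 were not called. Of the RFX complex, which binds the X box, 1 of 3 subunits was called. Rfxap was 67.0, 39.2 and 46.0 CPM in ILC3, against 26.6 and 45.6 CPM in CD4 T (edgeR adjusted p = 0.428), and Rfx5, its DNA-binding subunit, was 4.44, 1.54 and 8.07 CPM in ILC3, against 4.84 and 8.34 CPM in CD4 T (0.746). Rfxank, the remaining subunit, named like these after its values were seen, was 23.8, 22.2 and 20.5 CPM in ILC3, against 5.35 and 5.96 CPM in CD4 T. It was higher in ILC3 (log2 1.97, SE 0.426, adjusted p = 0.0317 in edgeR), a call lost without any 1 ILC3 library (0.0744 to 0.1), without CD4 T replicate 1 (0.0752) and with library size alone (0.102). Zbtb46, a zinc finger factor known from conventional dendritic cells, was 36.4, 20.9 and 44.1 CPM in ILC3, against 1.51 and 1.25 CPM in CD4 T (log2 4.61 with SE 0.547, adjusted p = 0.00606 in edgeR).

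The lower regulators were Spib, Irf4, Irf8, Spi1 and Prdm1. Spib, an Ets factor of plasmacytoid dendritic and B cells, was 0, 0.705 and 0.292 CPM in ILC3, against 176 and 62.3 CPM in CD4 T (log2 -8.60 with SE 1.19, adjusted p = 0.00952 in edgeR). Irf4 was lower in ILC3 (log2 -3.17, adjusted p = 0.0167 in edgeR) and Irf8 too (log2 -2.26, adjusted p = 0.0257). The Irf4 call was lost without ILC3 replicate 2 (0.0654) or CD4 T replicate 1 (0.0743), and that of Irf8 without any 1 ILC3 library (0.0549 to 0.0688) or CD4 T replicate 1 (0.114). With 1 library left out, the adjusted p was 0.034 to 0.143 for Spi1, whose call held only without ILC3 replicate 2, and 0.0463 to 0.213 for Prdm1, whose call held only without CD4 T replicate 2 (edgeR).

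Interferon gamma is known to induce Ciita. Of 9 genes of that pathway, 2 were higher in ILC3, 1 was lower and 6 were not called. Ifngr1, the ligand-binding receptor chain, was 3931, 3053 and 2766 CPM in ILC3, against 236 and 612 CPM in CD4 T (log2 2.94 with SE 0.514, adjusted p = 0.0171 in edgeR, and 0.0591 and 0.058 without ILC3 replicate 1 or 2). Socs1, a feedback inhibitor of the receptor's kinases, was higher in ILC3 (log2 3.08, adjusted p = 0.0111 in edgeR).

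Among 14 genes of endosomal processing and class II turnover, 8 fell in ILC3, 1 rose and 5 were not called. Ifi30, a thiol reductase of antigen processing, was 8.33, 10.5 and 9.88 CPM in ILC3, against 146 and 107 CPM in CD4 T (log2 -3.72 with SE 0.305, adjusted p = 0.00203 in edgeR). Lgmn, an asparagine endopeptidase, was 7, 10.1 and 3.68 CPM in ILC3, against 264 and 147 CPM in CD4 T (log2 -4.89 at adjusted p = 0.00421 in edgeR). Ctss, the cathepsin known for trimming the invariant chain, was 500, 573 and 657 CPM in ILC3, against 1821 and 2137 CPM in CD4 T (log2 -1.78 at adjusted p = 0.0138 in edgeR, and 0.0559 to 0.0769 without 1 ILC3 library). Cd83, a membrane protein known to slow class II turnover, went the other way, at 1478, 1588 and 1984 CPM in ILC3, against 707 and 666 CPM in CD4 T. Its log2 fold change was 1.29 (SE 0.304, edgeR adjusted p = 0.0397), and the call was lost without any 1 ILC3 library (0.091 to 0.119), without CD4 T replicate 1 (0.0521) and with library size alone (0.177).

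Costimulatory molecules give the second signal beside class II. Of 7 such genes, 3 fell in ILC3, 1 rose and 3 were not called. Cd86, which engages CD28, was 2.42, 12.3 and 4.97 CPM in ILC3, against 196 and 143 CPM in CD4 T (log2 -4.70 with SE 0.683, adjusted p = 0.0108 in edgeR). Tnfsf4, the OX40 ligand, was higher in ILC3 (log2 3.17, adjusted p = 0.0111 in edgeR). Cd40 was lower in ILC3 (log2 -1.86, adjusted p = 0.0308 in edgeR) and Cd274, which encodes PD-L1, too (log2 -1.71, adjusted p = 0.0451). Without ILC3 replicate 1, ILC3 replicate 2 or CD4 T replicate 1 the adjusted p of Cd40 was 0.0814 to 0.123 and that of Cd274 was 0.107 to 0.199, and without ILC3 replicate 3 that of Cd274 was 0.0525 (edgeR).

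The 5 genes whose profile over the 5 libraries came closest to the mean of Cd74, H2-Aa, H2-Ab1 and H2-Eb1 were Cenpw, Mmd, Gng10, Ctss and Hif1a, among 4922 genes of at least 20 CPM. Their root mean square differences from that mean were 0.125, 0.16, 0.187, 0.203 and 0.212 on the log2 scale. Ctss is the 1 gene among them that was also listed as part of class II processing. Cenpw, a centromere protein gene, was 26.3, 29.1 and 40.5 CPM in ILC3, against 68.5 and 83.3 CPM in CD4 T. The class II mean itself, centred over the libraries, was -0.84, -0.72 and -0.21 in ILC3 replicates 1 to 3, against 0.63 and 1.14 in CD4 T replicates 1 and 2.

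Macrophage, monocyte and plasmacytoid dendritic cell markers were mostly lower in ILC3 too, while 7.21% of all tested genes were called lower. From CD4 T replicate 1 to 2 the H2-Aa, H2-Ab1 and H2-Eb1 sum rose (7974 to 10152 CPM), as did the macrophage and monocyte sum (2415 to 3181 CPM). The plasmacytoid dendritic sum (5272 to 4336 CPM) and the conventional dendritic sum (809 to 672 CPM) fell. Of 12 macrophage and monocyte markers, 9 were lower in ILC3, 2 were not called and 1 was not tested. Mertk was at 0 in ILC3, against 2 and 126 counts in CD4 T. Lyz2, their highest member in both groups, was 99.7, 132 and 140 CPM in ILC3, against 659 and 1592 CPM in CD4 T. Of 11 plasmacytoid dendritic cell markers, 10 were lower and 1 was not called, and Ly6d was the highest in both groups, at 87.1, 422 and 388 CPM in ILC3, against 1730 and 1807 CPM in CD4 T. With 1 library left out, Ly6d was called only without ILC3 replicate 1 (edgeR adjusted p from 0.0391 to 0.135). Of 10 conventional dendritic cell markers, 5 were lower, 2 higher (Zbtb46 and Batf3, the call of Batf3 being lost without any 1 of the 5 libraries, at edgeR adjusted p from 0.0504 to 0.095) and 3 not called, with sums of 204 to 243 CPM in ILC3, against 809 and 672 CPM in CD4 T. Clec10a was at 0 in ILC3, while Itgax, the CD11c gene, held 1 count over the 3 ILC3 libraries against 4546 over the CD4 T libraries, and Clec9a 1 count against 5640. Ccr7 led the conventional dendritic list in ILC3, at 121, 100 and 103 CPM against 30.9 and 89.0 CPM in CD4 T, and Cd209a led it in CD4 T, at 0.0361, 4.61 and 0 CPM in ILC3, against 116 and 244 CPM in CD4 T.

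B cell and plasma cell markers were not mostly lower in ILC3. Of 12 B cell markers, 1 (Blk) was higher in ILC3, 8 were not called and 3 were not tested. The Blk call held only without CD4 T replicate 2 when 1 library was left out (edgeR adjusted p from 0.0338 to 0.111). Their sum was 193 to 372 CPM in ILC3, against 169 and 180 CPM in CD4 T. Cd79b was the highest member in both groups, at 66.1, 140 and 120 CPM in ILC3, against 46.4 and 80.7 CPM in CD4 T. Pax5, the defining B cell factor, was at 0 in all 5 libraries. Plasma cell markers summed to 18884, 101824 and 83483 CPM in ILC3, against 35385 and 21884 CPM in CD4 T, almost all of it Jchain, and of 8 markers 1 (Prdm1) was lower and 7 were not called. Antigen receptor segment genes made up 6.55%, 29.8% and 24.2% of ILC3 counts, against 17.0% and 10.2% in CD4 T. With these genes left out of the fit, the 5 lower members stayed called and H2-Aa was called too (edgeR adjusted p = 0.0469).

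Of 10 T cell markers, 6 were lower in ILC3 and 4 not called, with sums of 338 to 842 CPM in ILC3, against 1406 and 3578 CPM in CD4 T and Cd3g highest in both groups. Cd6 and Themis were at 0 in ILC3. Intestinal epithelial cells can carry class II as well. Their 10 markers summed to 7.54 to 14.9 CPM in ILC3, against 25.2 and 74.9 CPM in CD4 T, with 3 tested and not called. Epcam led in both groups (6.60 to 14.6 CPM in ILC3, against 23.1 and 26.9 CPM in CD4 T). Krt8, Krt20, Cdh1 and Fabp2 were at 0 in ILC3. Their counts were 0, 0, 1 and 26 in CD4 T replicate 1, and 146, 1, 44 and 71 in CD4 T replicate 2. The part of any of these cells in the class II levels of either group was not tested.

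**Figure D5:**
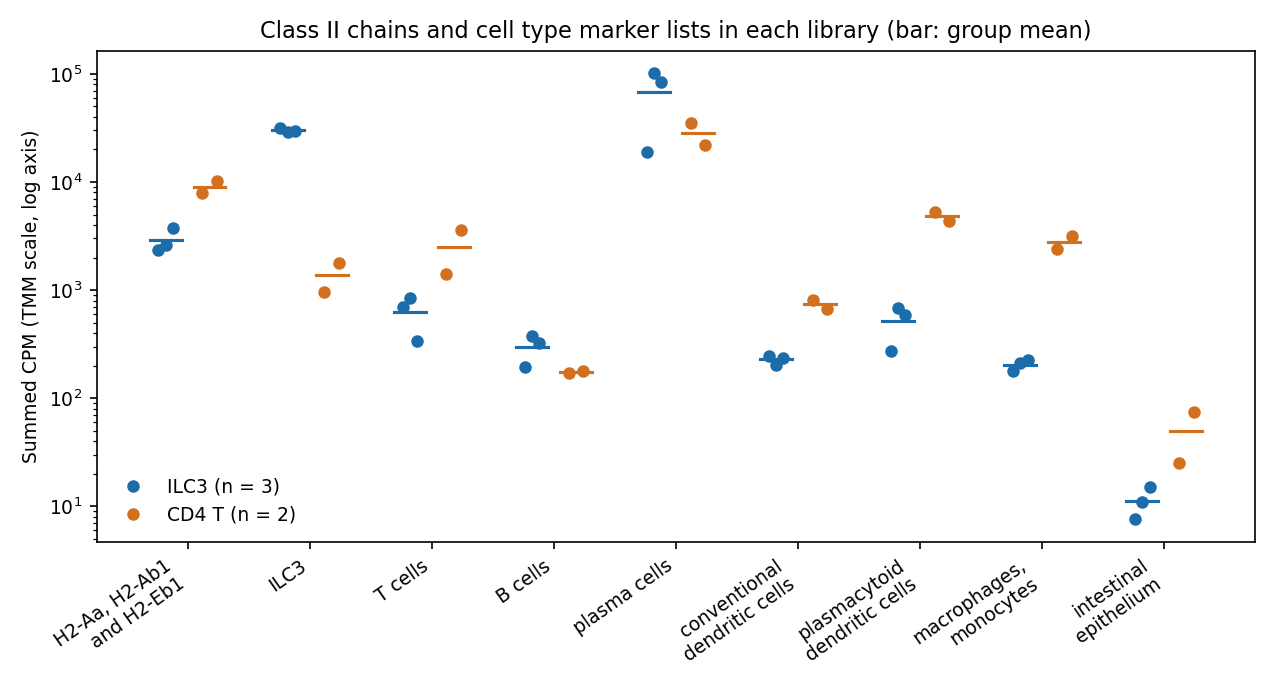
Summed CPM on a log axis of H2-Aa, H2-Ab1 and H2-Eb1 and of each cell type marker list, with points for the 3 ILC3 libraries (left) and the 2 CD4 T libraries (right) and a bar for the group mean. Class II chains sum to 2341 to 3741 CPM in ILC3 against 7974 and 10152 CPM in CD4 T, and the macrophage and plasmacytoid dendritic lists are lower in ILC3 as well, while the B cell list is not.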

How the data were processed

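The authors deposited whole-number counts per NCBI gene identifier, not normalized, for 5 libraries prepared by the SMARTer Ultra Low Input protocol, per the labels. CASAVA 1.8.2, STAR 2.3.0 and mm10 are named in the submitters' processing notes, with no role. How reads were counted (tool, annotation, strand) is not given in the sources used, so antisense or overlapping genes cannot be told apart. Members were matched by symbol in RefSeq (GRCm38.p6), whose primary assembly UCSC calls mm10 and which gave symbols for 25275 of the 27179 identifiers. The fit used R 4.3.3 and edgeR 4.0.16 (filterByExpr, TMM, glmQLFit and glmQLFTest, no covariate, 3 residual degrees of freedom), with Benjamini-Hochberg adjustment over 12747 genes. SE is the size of the log2 value over the square root of F. The test was checked on data simulated with the same dispersion for every gene. That check does not cover the spread of the real libraries. Transcript lengths, for levels per kilobase, are those of the longest GENCODE M21 transcript linked to RefSeq. No pair of libraries within a group differed by as little as sampling noise (chi-square per degree of freedom from 252 to 605).

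From each of 6 pathway lists up to 4 called genes with the smallest p are named, both directions included, or the 2 most abundant where none is called. From each of 8 cell type lists the most abundant gene of each group is named. Some genes that this rule names are not reported here. The members and lists were chosen with earlier results of these data known. The alternatives were other scaling, filters, robust dispersion, limma-voom (limma 3.58.1), the DESeq2 1.42.0 Wald test, receptor segment genes left out, a replicate block and each library left out.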

Additional observations from a re-analysis of the deposited data

How the results depend on the processing

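The number of members lower in ILC3 was 4 to 6, in place of 5, under every scaling, filter, dispersion and test alternative, also with receptor segment genes and Jchain left out, which was added after seeing the data. Without 1 library it was 1 to 4, where a group left with 1 library is assumed to vary like the other. Replicate numbers are shared by the groups but not tied to mice, and deviations of same-numbered libraries correlated at -0.0235 and -0.0338; with the number as a replicate block, 1 member (H2-DMb1) stayed called, and 215 genes were higher and 305 lower. Over all genes the numbers higher and lower were 824 and 919, against 384 and 1502 with library size alone (median log2 -0.60 in place of -0.10, and 20.4% of calls higher in place of 47.3%), 1914 and 1858 in DESeq2, 1317 and 1402 in limma-voom, 1250 higher with no filter, and 269 to 1712 and 306 to 960 without 1 library. None of Cd74, H2-DMb2, H2-Oa and Cd3g was called, and with 1 library left out their log2 fold changes ran from -1.09 to 0.32, -1.35 to 1.65, -0.15 to 0.76 and -1.98 to 0.25, the sign turning without CD4 T replicate 2 (for H2-Oa, replicate 1). It also turned for H2-DMb2 in limma-voom (0.36) and under the replicate block (0.36), and for H2-Oa with library size alone (-0.25). The log2 difference in H2-DM to H2-O, -1.92, was -2.27 per kilobase, -2.20 for alpha chains and -0.24 for beta chains. Causes were not tested. Low counts limit what can be said of Ciita and H2-Ea.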
